A study of Rattus norvegicus with 5 samples.

Results

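The genes described here are 4 ligands of the vascular endothelial growth factor (VEGF) family, Vegfa, Vegfb, Vegfc and Pgf, their receptor genes Flt1 and Kdr, and the co-receptor genes Nrp1 and Nrp2. They were chosen by symbol, and each of the 8 symbols matched 1 of the 25399 genes measured. Retinal cells of SD rats were profiled by droplet single-cell RNA sequencing in 1 library each at 2, 4 and 8 weeks of diabetes, set against 1 control library. The diabetic rats had received a single intraperitoneal dose of 45 mg/kg streptozotocin (STZ), which destroys pancreatic beta cells, had blood glucose above 200 mg/dL, and were then kept on food high in fat and sugar. Control rats received citrate buffer and were sampled at 0 weeks, so diabetes, diet and time since injection cannot be told apart. All retinas were dissociated with 0.25% trypsin for about 40 min, passed through a 40 µm strainer and treated to lyse red blood cells. The matrix of control replicate 1 was not analysed here.

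VEGF-A is the main secreted factor that makes vessels grow and leak, and in the retina it is known to be made by Müller glia and neurons. It signals mainly through KDR (VEGFR2), while FLT1 (VEGFR1) binds VEGF-A, VEGF-B and placental growth factor (PlGF, the product of Pgf) tightly and signals weakly, and also occurs as a soluble decoy. Neuropilins bind class 3 semaphorins as well as some VEGF forms, and VEGF-C acts on lymphatic and blood vessel endothelium. Hypoxia-inducible factors (HIF) raise Vegfa transcription when oxygen is low.

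The promoters of Vegfa and Kdr are shown because these genes carry the clearest changes in level and the clearest restriction to a cell class in these data. Both come from RefSeq, build GRCr8, plus strand, 5′ to 3′ up to the base before the gene's start. Vegfa lies at chr9:22452604-22452853 (250 bases) and Kdr at chr14:32571813-32572030 (218 bases). Capitals mark GGGCGG (the core of an Sp1-type GC box), and ACGTG and GCGTG (cores of hypoxia response elements), on either strand.
Vegfa: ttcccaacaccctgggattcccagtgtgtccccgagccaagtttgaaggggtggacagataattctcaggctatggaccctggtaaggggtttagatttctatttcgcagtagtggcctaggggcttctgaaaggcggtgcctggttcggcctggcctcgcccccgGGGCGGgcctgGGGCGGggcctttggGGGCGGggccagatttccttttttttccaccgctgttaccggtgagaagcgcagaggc
Kdr: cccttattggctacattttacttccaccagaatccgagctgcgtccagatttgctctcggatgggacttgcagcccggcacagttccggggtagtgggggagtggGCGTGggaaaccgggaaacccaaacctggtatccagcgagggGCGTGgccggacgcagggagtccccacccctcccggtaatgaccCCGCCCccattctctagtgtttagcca
Vegfa held 3 GGGCGG matches, 84, 73 and 58 bases before the gene's start, and no match to ACGTG or GCGTG in the bases shown. Sequence further upstream was not searched. Kdr held 1 GGGCGG match, on the minus strand and so printed as CCGCCC, 27 bases before the start, and GCGTG at 113 and 71 bases before it. Over the 250 bases before the start site, GGGCGG matched in 6 of the 8 genes, all but Nrp1 and Nrp2, GCGTG in 6, all but Vegfa and Vegfc, and ACGTG and the AP-1 motif TGANTCA in 0. In all 27457 rat promoters of this length, GGGCGG was found in 32.4%, GCGTG in 27.2%, ACGTG in 16.9% and TGANTCA in 6.36%. Both strands were searched, each motif was counted on its own, matches of different motifs may share letters, and a match describes letters only.

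The 4 libraries, in the order control, 2, 4 and 8 weeks, held 9742, 16128, 10717 and 7649 barcodes, of which 6823, 10984, 7689 and 4283 were used. The median was 903 to 1414 UMIs (unique molecular identifiers, 1 per captured RNA molecule) per cell, and libraries shared 13 to 70 barcodes pairwise. Cells fell into 26 clusters, 7 of which stayed unnamed, and classes are named by markers that include none of the 8 genes. Levels are UMIs of a gene summed over the cells of a class, as counts per 1000000 UMIs of that class (CPM), and brackets give exact 95% intervals that cover counting error only, since there is 1 library per group and no replicate check. Ratios are log2, diabetic over control, and a gene is called higher or lower at 2-fold with an interval that leaves out 0. The 3 diabetic libraries share 1 control library, so their ratios are not independent. Rod genes, a measure of free RNA and of rod pieces in other classes, stood in Müller glia at 6.27%, 23.8%, 7.48% and 4.75% of their level in the whole library, and at 3.83%, 11.0%, 3.99% and 3.86% in endothelial cells.

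**Figure D1:**
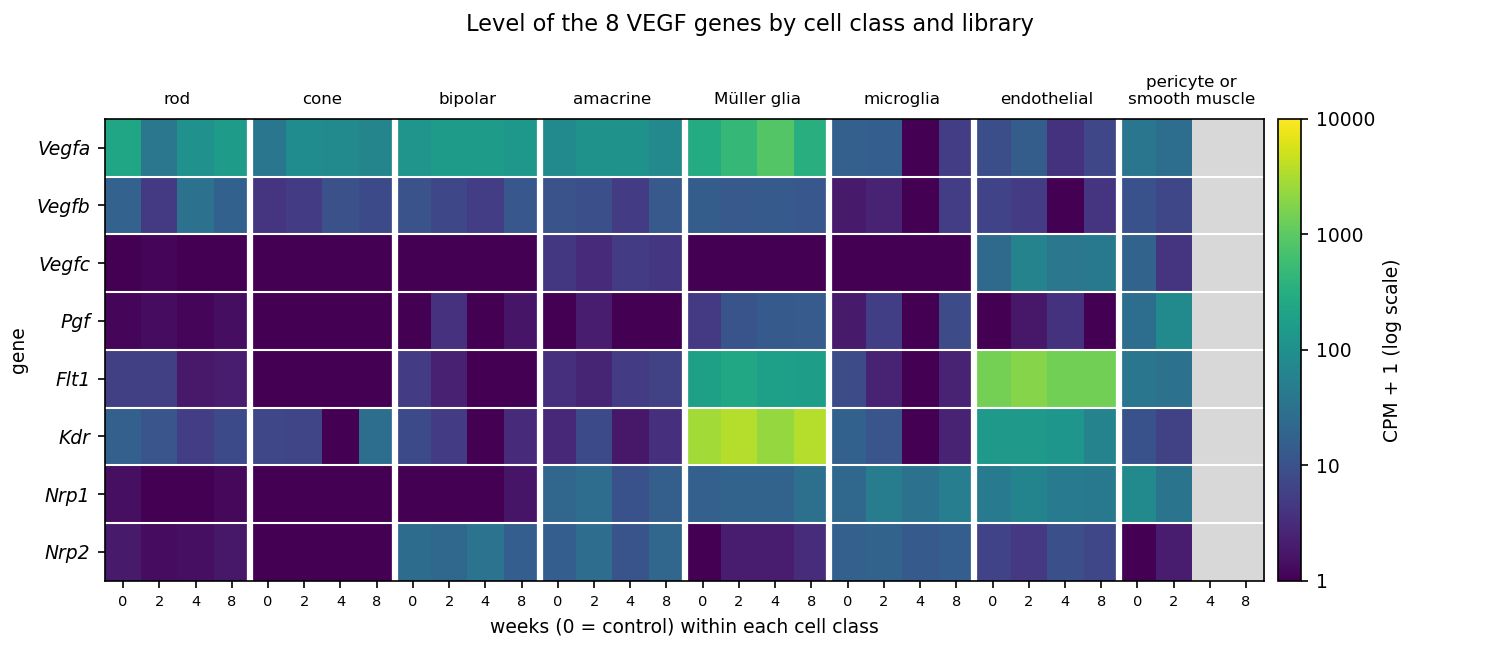
Level of each VEGF gene (rows; colour, CPM + 1 on a log scale) in 8 cell classes at 0 (control), 2, 4 and 8 weeks; grey marks a class with fewer than 30 cells. Vegfa is spread over neurons and Müller glia, Kdr stands out in Müller glia and Flt1 in endothelial cells, and Vegfc and Pgf are low outside vessel cells.

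Vegfa, the ligand gene found in the most classes, was lower in rods and higher in Müller glia of the 2 and 4 week libraries. In rods it stood at 223 CPM [212, 235] in control, 37.0 [33.0, 41.3] at 2 weeks, 106 [98.5, 114] at 4 weeks and 155 [144, 166] at 8 weeks, from 1397, 316, 721 and 739 UMIs. No interval overlaps another, so the level was lowest at 2 weeks and closest to control at 8 weeks. The log2 ratios were -2.59 [-2.78, -2.42], -1.07 [-1.21, -0.94] and -0.53 [-0.66, -0.40]. Of the 5777, 6058 and 6131 genes compared in rods, 11.8%, 5.12% and 0.652% lay past 2-fold at 2, 4 and 8 weeks, whatever their interval. The median ratio of all genes was -0.27 in rods at 2 weeks and near 0 at the other times (0.03 and 0.01). Relative to that median the Vegfa ratio at 2 weeks was -2.33.

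The share of rods with a Vegfa UMI gave the same order. It was 21.2% of 5376 control rods, 3.85% of 7745 at 2 weeks, 10.1% of 6528 at 4 weeks and 19.2% of 3031 at 8 weeks, at median depths of 865, 871, 846 and 1022 UMIs. With each cell thinned to 500 UMIs the shares were 10.2%, 2.09%, 5.58% and 7.52%. Erythroid cells, which should lack the transcript, had a Vegfa UMI in 5.56%, 6.52%, 5.26% and 3.85% of cells at median depths of 15118, 8711, 8941 and 11002 UMIs, and in none once thinned. The unthinned rod share at 2 weeks was no higher than the erythroid share, but at median depths of 871 and 8711 UMIs the 2 are not alike. By CPM, rods at 2 weeks stood at 37.0 and erythroid cells at 14.3, the latter from 5 UMIs. Median mitochondrial share in rods was 2.88%, 6.63%, 1.83% and 3.09%, highest in the library with the least rod Vegfa. Over 13 settings, among them limits of 10% and 40% mitochondrial UMIs, the 2 week log2 ratio of rod Vegfa lay between -2.92 and -2.32.

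Rods of the libraries fell mostly into different clusters. Clusters 1 and 4 held 42.7% and 39.3% of control rods, clusters 0 and 3 held 48.5% and 36.9% of rods at 2 weeks, cluster 2 held 57.5% at 4 weeks, and clusters 1 and 4 held 57.5% and 21.6% at 8 weeks. Within the 5 rod clusters with at least 30 cells in both libraries, numbered 0 to 4, the Vegfa ratio at 2 weeks was -2.15, -2.11, -2.23, -1.71 and -2.61, each with an interval below 0. At 4 weeks it was -0.88, -0.77, -0.89, -0.85 and -0.65. None of these reached 2-fold, nor did the value with cells thinned (-0.89) or at no more than 10% mitochondrial UMIs (-0.99), so the 4 week call rests on the pooled class. At 8 weeks the ratios were -0.67, -0.63, -0.69, 0.46 and -0.35, and in cluster 3, with 12 UMIs in 75 diabetic cells, and in cluster 0 the interval held 0.

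**Figure D2:**
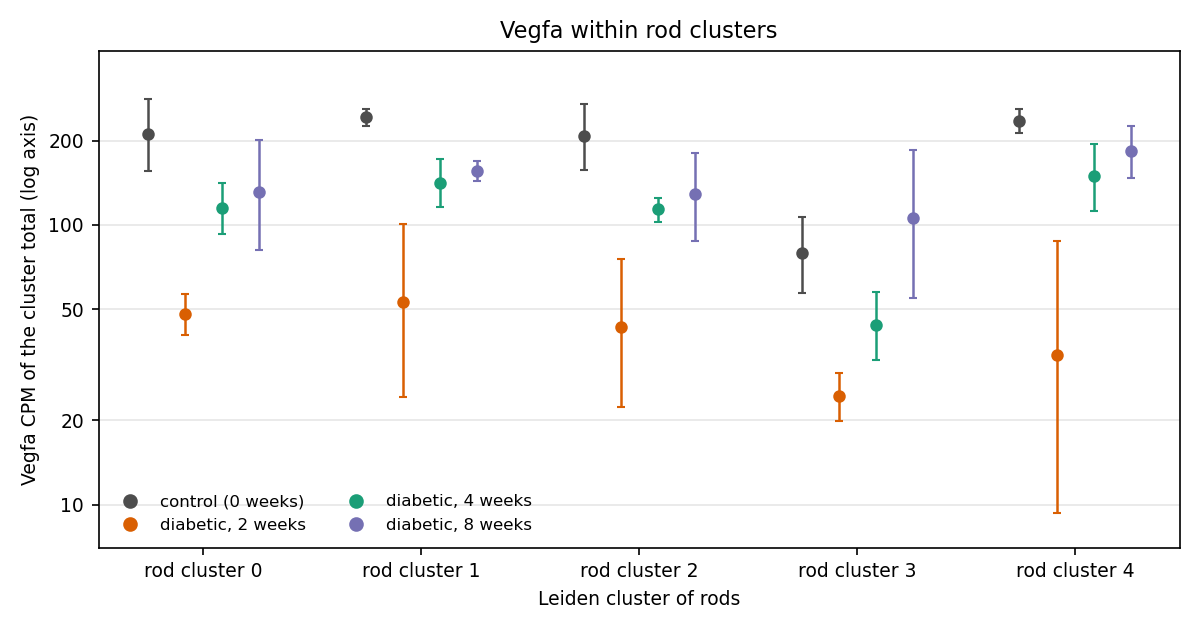
Vegfa in the 5 rod clusters that could be compared (CPM of the cluster total, log axis; points, 1 library each; bars, exact 95% counting intervals), in the order control, 2, 4 and 8 weeks. The 2 week point is the lowest of the 4 in every cluster, and the 8 week point of cluster 3 lies above its control point with overlapping bars.

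In Müller glia, which span the retina and support its neurons, Vegfa stood at 288 CPM [260, 318] in control, 465 [424, 509] at 2 weeks, 864 [806, 925] at 4 weeks and 325 [274, 382] at 8 weeks, from 385, 465, 820 and 147 UMIs. The levels at 2 and 4 weeks lay above control and apart from each other, and that at 8 weeks overlapped control. The log2 ratios were 0.69 [0.49, 0.89], 1.58 [1.41, 1.76] and 0.18 [-0.11, 0.45], so only that at 4 weeks passed 2-fold. The share of Müller cells with a Vegfa UMI was 49.6% of 391 cells, 58.4% of 406, 80.5% of 302 and 55.8% of 154, and with cells thinned 12.5%, 20.0%, 36.1% and 18.8%. The median cell held 0, 1, 2 and 1 Vegfa UMIs, and the highest cell 10, 9, 14 and 6, so no single cell carried the sums. With the rod share of free RNA subtracted, the ratio at 2 weeks was 0.95.

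Rods and Müller glia differed in the direction of Vegfa at 2 and 4 weeks, and their shares of its UMIs shifted. In the order control, 2, 4 and 8 weeks, rods held 65.3%, 17.4%, 36.1% and 54.8% of the Vegfa UMIs of a library. Müller glia held 18.0%, 25.6%, 41.1% and 10.9%, while making up 5.73%, 3.70%, 3.93% and 3.60% of the cells. Over all cells of a library Vegfa stood at 152, 85.4, 167 and 121 CPM, an order that follows neither class and also moves with the share of each class recovered.

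**Figure D3:**
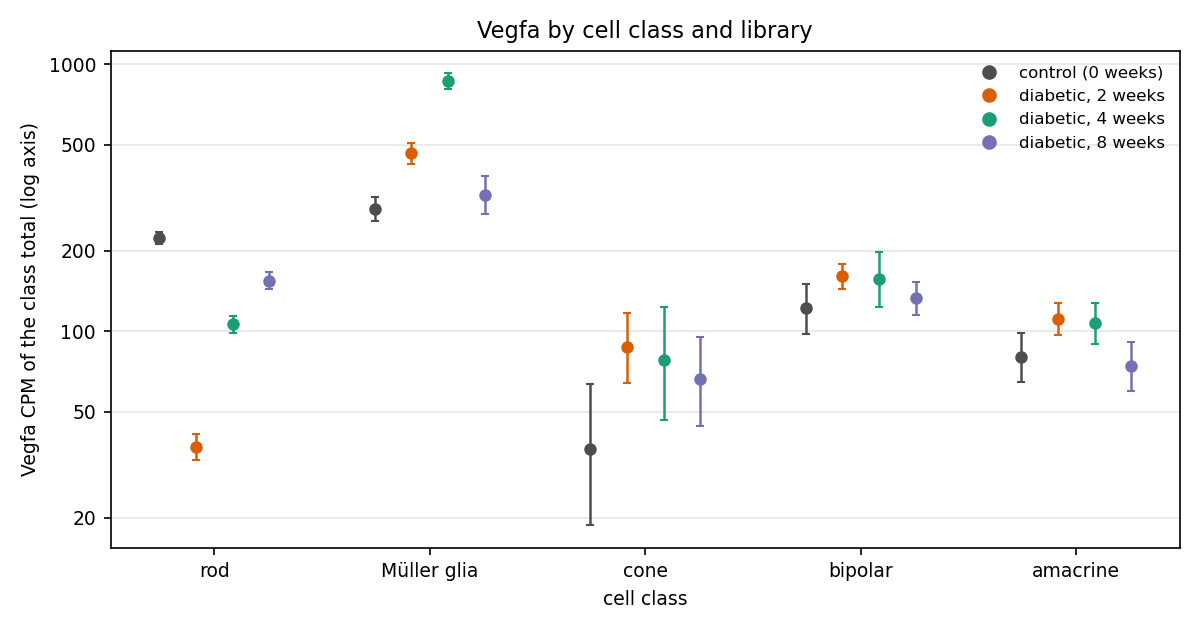
Vegfa in the 5 classes with the highest levels (CPM of the class total, log axis; points, 1 library each; bars, exact 95% counting intervals), in the order control, 2, 4 and 8 weeks. Rods lie below their control point in all 3 diabetic libraries and most at 2 weeks, Müller glia peak at 4 weeks, and cone, bipolar and amacrine points at 8 weeks have bars that overlap control.

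The other neurons carried Vegfa at levels that moved less. In bipolar cells, which relay photoreceptor signals, it stood at 122, 161, 157 and 133 CPM (log2 ratios 0.39, 0.37 and 0.12). In amacrine cells, inhibitory interneurons, it stood at 80.3, 111, 108 and 74.4 CPM (0.46, 0.42 and -0.11). None passed 2-fold. In bipolar cells 4, 2 and 3 genes of the family could be compared at the 3 times and 0 were called, where 4.88%, 5.12% and 13.5% of all genes lay past 2-fold. At no more than 10% mitochondrial UMIs, against a median of 15.8% to 17.0% in bipolar cells, the bipolar ratios were 1.62, 1.91 and 0.71. Rod genes stood in bipolar cells at 18.6%, 26.0%, 19.5% and 82.4% of their library level, so the 8 week bipolar sums hold far more rod signal than the others, and its part was not tested.

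A pair of clusters kept out of the bipolar and amacrine classes by a naming rule set after the clusters were seen carried Vegfa in the same range. Cluster 6, led by bipolar markers and Ptgds, made up 1.54%, 3.48%, 2.30% and 3.53% of cells and held 153, 196, 221 and 108 CPM (ratios 0.35, 0.53 and -0.50). Cluster 10, led by amacrine markers and Sncg, made up 1.11%, 0.583%, 2.08% and 3.43% of cells and held 102, 109, 146 and 93.6 CPM (0.11, 0.52 and -0.12).

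Cones, the colour photoreceptors, held little Vegfa, from 12, 45, 18 and 29 UMIs, at 36.4, 87.7, 78.3 and 66.1 CPM. At 2 weeks the ratio was 1.23 [0.33, 2.32], a call that ended with doublets kept (0.43) or with up to 40% mitochondrial UMIs (0.91). At 4 and 8 weeks the intervals held 0 (1.09 and 0.83). The share of cones with a UMI was 12.9%, 22.4%, 28.1% and 18.6%.

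In endothelial cells Vegfa stood at 8.06, 14.2, 2.86 and 6.15 CPM and in microglia at 15.6, 14.9, 0 and 4.38 CPM, next to 8.99, 14.3, 6.15 and 3.73 CPM in erythroid cells. The endothelial and erythroid intervals overlap in every library. The 8 week microglia ratio of -1.65 [-4.25, -0.04], called lower from 3 UMIs against 17 in control, comes from that low range. For the 0 UMIs at 4 weeks the floor, set at 3 counts, is 9.48 CPM.

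In each library Müller glia had the highest Vegfa of the classes, and the neurons behind them changed places. In control the order was Müller glia, rods, bipolar, amacrine and cone, with bipolar and amacrine intervals touching. At 2 weeks rods stood last, below cones, and cone and amacrine intervals overlapped. At 4 weeks the bipolar, amacrine and cone intervals overlapped in turn and the rod interval lay within those of amacrine cells and cones. At 8 weeks rods and bipolar cells overlapped, as did amacrine cells and cones.

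Vegfb, which encodes a ligand of FLT1 known for roles in fatty acid uptake and cell survival, was low in every class. In rods it stood at 17.4 CPM [14.3, 21.0] in control, 3.74 [2.56, 5.28] at 2 weeks, 30.6 [26.6, 35.1] at 4 weeks and 16.3 [12.9, 20.4] at 8 weeks, from 109, 32, 208 and 78 UMIs. It was called lower at 2 weeks (-2.20 [-2.84, -1.64], -1.94 relative to the all-gene median), was above control but short of 2-fold at 4 weeks (0.81 [0.47, 1.16]) and overlapped control at 8 weeks (-0.09). In the pooled rod class the 2 ligands thus moved together at 2 weeks and apart at 4 weeks. Within rod clusters 0 and 1 the 2 week Vegfb ratios were -1.90 and -1.18, and both intervals held 0. No 2 week ratio is given for clusters 3 and 4. Cluster 3 held 11 UMIs at 2 weeks and 0 in control, cluster 4 held 0 at 2 weeks and 23 in control, and their intervals also held 0. At 4 weeks clusters 0, 1, 2 and 4 gave 1.38, -0.01, 0.04 and 0.80, and of these only the interval of cluster 0 left out 0. Cluster 3 held 24 UMIs at 4 weeks against 0 in control, and its interval lay above 1.41. The 2 week Vegfb call therefore rests on the pooled class. Erythroid cells held 0 Vegfb UMIs, for which the floor of 3 counts is 3.85, 8.57, 18.4 and 11.2 CPM. The 2 week rod level lies under that floor. In Müller glia Vegfb stood at 14.2, 12.0, 12.6 and 11.0 CPM, from 5 to 19 UMIs, with all ratios within 2-fold, so that at 2 weeks the rod level lay below that of Müller glia, and also below the 8.51 CPM of amacrine cells and the 6.36 CPM of bipolar cells.

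Of the named classes, Vegfc was highest in endothelial cells, which held 38.6%, 74.2%, 48.1% and 59.1% of its UMIs in the 4 libraries. Unnamed clusters held 47.7%, 21.7%, 33.3% and 22.7%, and amacrine cells held 4, 4, 5 and 4 UMIs. In endothelial cells Vegfc stood at 22.8 CPM [13.3, 36.6] in control, 59.4 [50.2, 69.9] at 2 weeks, 37.2 [19.8, 63.7] at 4 weeks and 40.0 [21.3, 68.3] at 8 weeks. These levels came from 17, 147, 13 and 13 UMIs in 91, 417, 32 and 51 cells. Only the 2 week interval lies apart from control (1.34 [0.65, 2.20], called higher), and the intervals of 0.72 and 0.82 at 4 and 8 weeks held 0. Müller glia held 0 Vegfc UMIs in every library, which allows at most 2.24 to 6.63 CPM, and rods held 1 UMI in all. Cluster 22, 76 cells with endothelial and pericyte markers together, held Vegfc at 41.0, 67.1, 48.9 and 8.99 CPM.

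Pgf was found in pericytes or smooth muscle cells, which wrap the vessels, in the unnamed cluster 22 and faintly in Müller glia. Cluster 22 held 11 of the 21 Pgf UMIs of the control library (52.4%), and stood at 28.2, 11.5, 27.9 and 0 CPM in 20, 43, 7 and 6 cells. Pericytes or smooth muscle cells held 78 UMIs in 299 cells at 2 weeks, against 3 UMIs in 40 control cells, or 77.8 CPM against 27.1 in control (1.31 [-0.08, 3.83]). The interval holds 0, and the 4 and 8 week libraries held 5 and 13 such cells and gave no ratio. In Müller glia Pgf stood at 3.74, 10.0, 12.6 and 13.3 CPM from 5, 10, 12 and 6 UMIs. Each diabetic point lay above control, but only the 4 week interval left out 0 (1.35, 1.68 [0.15, 3.62] and 1.80). Erythroid cells held 0 Pgf UMIs, for which the floor of 3 counts is 3.85, 8.57, 18.4 and 11.2 CPM. The Müller levels are not separated from that floor at every time.

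Flt1, the decoy-like receptor gene, marked endothelial cells, which line the vessels. It stood there at 1455 CPM [1370, 1545] in control, 1853 [1799, 1907] at 2 weeks, 1421 [1299, 1552] at 4 weeks and 1417 [1290, 1552] at 8 weeks, from 1083, 4582, 496 and 461 UMIs. The 2 week level was above the other 3 (0.35 [0.25, 0.45]), and the others overlapped (-0.03 and -0.04). Of endothelial cells, 97.8%, 97.8%, 96.9% and 88.2% had a Flt1 UMI, and 54.9%, 65.9%, 62.5% and 41.2% with cells thinned. The sums lean on a few cells: 1 cell gave 139 of the 496 UMIs at 4 weeks, and 1 cell 117 of the 1083 control UMIs. Cluster 22 carried Flt1 at a like level, 1192, 1913, 1180 and 1609 CPM.

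Flt1 was also present in Müller glia, at 186, 237, 179 and 175 CPM (0.35 [0.09, 0.61], -0.05 and -0.09), with a UMI in 44.0%, 39.4%, 38.7% and 37.7% of cells. As in endothelial cells the 2 week level was the highest, though here its bar touched that of control, and no ratio reached 2-fold. Erythroid cells held 1 Flt1 UMI in all. In rods Flt1 stood at 4.80, 4.79, 0.883 and 1.05 CPM, in 0.0919% to 0.478% of cells. Its ratios there were called lower at 4 and 8 weeks (-2.35 and -2.08) from 6 and 5 UMIs against 30 in control, of which 9 lay in 1 cell. The level of Flt1 over all cells was 131, 277, 70.9 and 65.5 CPM, and the part of free RNA in the rod values was not tested.

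Kdr, the main signalling receptor gene, was carried mostly by Müller glia rather than by endothelial cells. In Müller glia it stood at 2800 CPM [2711, 2891] in control, 3546 [3430, 3664] at 2 weeks, 2319 [2223, 2418] at 4 weeks and 3552 [3380, 3730] at 8 weeks, from 3745, 3546, 2201 and 1608 UMIs. Levels at 2 and 8 weeks overlapped each other and lay above control, and that at 4 weeks lay below, all by less than 2-fold (0.34, -0.27 and 0.34). A Kdr UMI was found in 98.7%, 97.8%, 96.4% and 97.4% of Müller cells, and in 73.4%, 76.6%, 63.2% and 82.5% with cells thinned. The median Müller cell held 9, 8, 7 and 10 Kdr UMIs, with 3, 3, 2 and 3 at the 10th percentile, so the transcript was present across the class. Müller glia held 93.1%, 85.8%, 96.3% and 94.4% of all Kdr UMIs in the libraries.

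Kdr was kept out of the clustering and of the marker lists, so its concentration in the Müller cluster was not built in, and it is among the 10 genes that lead that cluster by fold. Vegfa and Kdr were found in the same cells: of the 194, 237, 243 and 86 Müller cells with a Vegfa UMI, 193, 232, 236 and 85 also had a Kdr UMI. Since nearly every Müller cell had Kdr, the overlap adds nothing to the Kdr share. The thinned ratios of Kdr in Müller glia were -0.40 at 4 weeks and 0.51 at 8 weeks, and the 2 week ratio with free RNA subtracted was 0.61.

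In endothelial cells Kdr stood at 142 CPM [117, 172] in control, 139 [124, 154] at 2 weeks, 123 [89.1, 166] at 4 weeks and 61.5 [37.5, 94.9] at 8 weeks, from 106, 343, 43 and 20 UMIs. Levels at 2 and 4 weeks overlapped control (-0.04 and -0.20), and 17 of the 43 UMIs at 4 weeks lay in 1 cell. At 8 weeks the ratio was -1.18 [-1.98, -0.51], called lower, and it was -0.94 at Leiden resolution 0.5. A Kdr UMI was found in 53.8%, 45.8%, 46.9% and 27.5% of endothelial cells, at median depths of 4113, 3929, 5111 and 4414 UMIs, and in 7.69%, 8.39%, 9.38% and 1.96% with cells thinned. Erythroid cells had one in 1.85%, 6.52%, 0% and 0%, and 0 of the 19 and 26 cells at 4 and 8 weeks allow up to 15.8% and 11.5%. Relative to the median ratio of all endothelial genes at 8 weeks (-0.13), that of Kdr was -1.05.

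**Figure D4:**
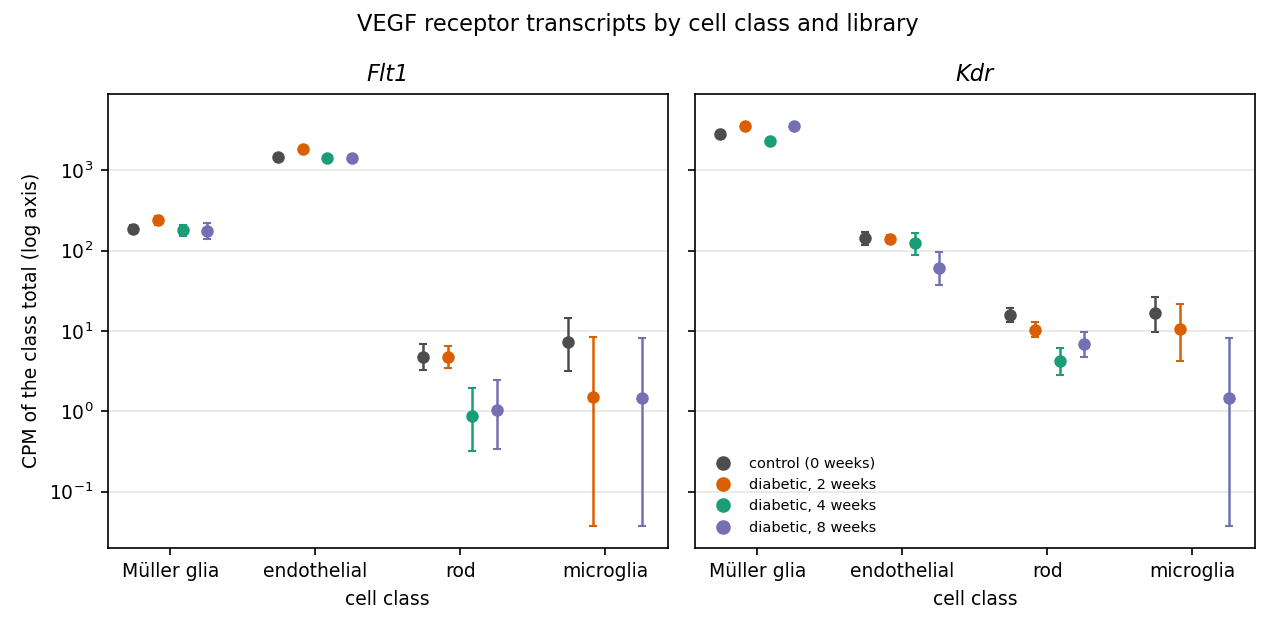
Flt1 (left) and Kdr (right) in 4 classes (CPM of the class total, log axis; points, 1 library each; bars, exact 95% counting intervals), in the order control, 2, 4 and 8 weeks; a library with 0 UMIs, such as microglia at 4 weeks, has no point. Flt1 is highest in endothelial cells and Kdr in Müller glia, with rods and microglia below 20 CPM.

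In rods Kdr stood at 16.0, 10.4, 4.27 and 6.91 CPM, in 1.71%, 1.06%, 0.444% and 0.924% of cells, at median depths of 865, 871, 846 and 1022 UMIs. Erythroid cells, at depths of 8711 to 15118 UMIs, held 1.28 CPM in control from 1 UMI, 22.8 CPM at 2 weeks from 8 UMIs of which 6 lay in 1 cell, and 0 UMIs at 4 and 8 weeks. The control rod level thus lay above the erythroid level, and that at 2 weeks did not. The ratios were -0.62, -1.89 and -1.20, called lower at 4 and 8 weeks, and with the 8 genes kept among the variable genes of the clustering they were -0.02 at 2 weeks and -0.95 at 8 weeks. Over all cells Kdr stood at 286, 194, 191 and 152 CPM, and free RNA from Müller glia was not tested as a source. In microglia 15 of the 18 control Kdr UMIs lay in 1 cell, so the 8 week ratio of -2.96 rests on it, and in cones at 8 weeks 10 of 12 lay in 1 cell, without which the ratio of 1.91 was 0.32.

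Nrp1, the co-receptor gene that binds VEGF-A and semaphorin 3A, was found in vessel cells, microglia, amacrine cells and Müller glia. The amacrine clusters differed, with 45.4 CPM over all libraries in cluster 16 (69 UMIs) and 8.35 CPM in cluster 9 (33 UMIs), beside 33.1 and 38.6 CPM in the microglial clusters 13 and 18. In endothelial cells it stood at 45.7, 62.7, 43.0 and 40.0 CPM from 34, 155, 15 and 13 UMIs, and all intervals overlapped (0.44, -0.06 and -0.16). In microglia, the resident immune cells, it stood at 21.1 [13.4, 31.7], 49.3 [33.9, 69.2], 31.6 [15.2, 58.1] and 49.6 [34.3, 69.3] CPM from 23, 33, 10 and 34 UMIs. Levels at 2 and 8 weeks lay above control and were called higher (1.21 [0.41, 2.06] and 1.22 [0.43, 2.06]), while at 4 weeks, with 10 UMIs in 76 cells, the interval held 0 (0.62). With up to 40% mitochondrial UMIs the 2 week ratio fell just short of 2-fold. Relative to the median of all microglial genes at 2 weeks (0.17), the ratio was 1.05.

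In pericytes or smooth muscle cells Nrp1 stood at 33.9 CPM at 2 weeks against 81.4 in control, from 34 and 9 UMIs (-1.32 [-2.35, -0.02]), whereas the microglial ratio at that time was above 0. In amacrine cells it stood at 20.1, 26.1, 9.10 and 15.4 CPM and was called lower at 4 weeks (-1.11 [-2.33, -0.05]), from 11 UMIs against 23, and that ratio was -0.94 at no more than 10% mitochondrial UMIs. In Müller glia it stood at 15.7, 18.0, 17.9 and 28.7 CPM, within 2-fold throughout. Erythroid cells held 0 Nrp1 UMIs.

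Nrp2, the co-receptor gene that binds VEGF-C and semaphorin 3F, was found in interneurons and microglia and hardly in vessel cells. In bipolar cells it stood at 24.7, 20.4, 32.8 and 14.5 CPM (-0.30, 0.42 and -0.78), in amacrine cells at 14.8, 25.5, 9.92 and 20.2 CPM (0.76, -0.56 and 0.43), and in microglia at 15.6, 17.9, 12.6 and 14.6 CPM (0.22, -0.17 and -0.07). All intervals held 0 and none reached 2-fold. Over all libraries it stood at 54.8 CPM in bipolar cluster 14 (82 UMIs) and 45.3 CPM in unnamed cluster 10 (109 UMIs), where the 4 libraries gave 50.9, 49.2, 50.1 and 35.4 CPM. Endothelial cells held 4, 9, 3 and 2 UMIs.

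Calls among the family can be read against all genes of a class, of which the share past 2-fold is given whatever their interval. In rods 2 of 4 compared genes were called at 2 weeks (Vegfa and Vegfb, both lower), 3 of 4 at 4 weeks (Vegfa, Flt1 and Kdr, lower) and 2 of 5 at 8 weeks (Flt1 and Kdr, lower), where only 1, 2 and 1 of them met the level of 20 CPM set for the all-gene shares of 11.8%, 5.12% and 0.652%. In Müller glia 0 of 6, 2 of 6 (Vegfa and Pgf, higher) and 0 of 6 were called, against 4.41%, 3.99% and 3.33% of all genes. In endothelial cells 1 of 7 (Vegfc, higher), 0 of 4 and 1 of 4 (Kdr, lower) were called, against 5.68%, 7.61% and 6.58%. In amacrine cells 0 of 5, 1 of 4 (Nrp1, lower) and 0 of 4 were called, against 3.28%, 3.07% and 1.26%. In microglia 1 of 4 (Nrp1, higher), 0 of 4 and 3 of 4 (Nrp1 higher, Vegfa and Kdr lower) were called, against 9.10%, 10.8% and 3.91%. Only 1 of the 4 met 20 CPM at each time there, and Vegfa and Kdr at 8 weeks did not, with 3 and 1 UMIs. In cones 1 of 1 (Vegfa, higher), 0 of 1 and 1 of 2 (Kdr, higher) were called, against 5.33%, 5.47% and 3.36%, and in pericytes or smooth muscle cells 1 of 4 (Nrp1, lower) at 2 weeks, against 18.4%. Of the compared genes, 3, 3 and 4 met 20 CPM in Müller glia, 4 at each time in endothelial cells, 3, 1 and 1 in amacrine cells, 1 at each time in cones and 4 in pericytes or smooth muscle cells. With so few genes, 1 call moves such a share a long way.

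**Figure D5:**
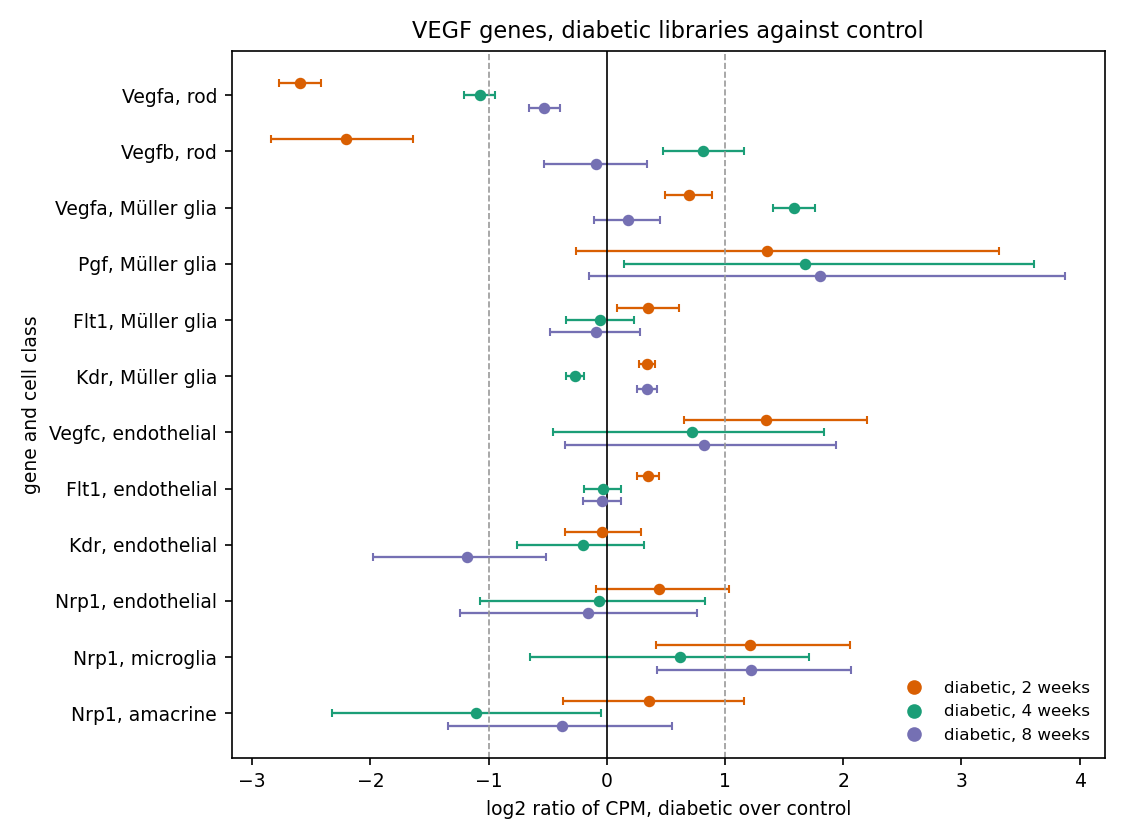
Log2 ratio of CPM, diabetic over control, for 12 pairs of gene and cell class (points; bars, 95% counting intervals) at 2, 4 and 8 weeks; dashed lines mark 2-fold and the solid line no difference. Vegfa lies left of 0 in rods and right of it in Müller glia at 2 and 4 weeks, and bars are long for genes with few UMIs such as Pgf.

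The genes that control Vegfa were read from 2 lists. Of 24 listed genes of the HIF pathway (HIF subunits, the hydroxylases that mark them and known targets), 11, 12 and 10 could be compared in Müller glia at 2, 4 and 8 weeks. Their median ratios were 0.25, 0.36 and 0.10, beside 0.05, 0.03 and 0.06 over all genes. Above 0 lay 7, 9 and 7 of them, and the share of all genes above 0 was not counted. Of all Müller genes, 4.41%, 3.99% and 3.33% lay past 2-fold. Past 2-fold were Ndrg1, a hypoxia-induced stress gene, at 2 weeks (1.26), and P4ha2, a collagen prolyl hydroxylase (1.76), and Ankrd37, a HIF target (1.61), at 4 weeks. Ldha, the lactate dehydrogenase subunit of glycolysis, stood at 1037, 848 and 512 CPM at 2, 4 and 8 weeks against 616 in control (0.75, 0.46 and -0.26), and was named after its values were seen. In rods Ldha was above control too (0.78, 0.61 and 0.19), at 4119 CPM against 2395 at 2 weeks. Rod genes stood in Müller glia at 23.8% of their library level at 2 weeks and 6.27% in control. Ndrg1 stood in Müller glia at 29.0 CPM at 2 weeks against 12.0 in control, and in rods at 260 against 460. The part of rod RNA in the Müller Ndrg1 and Ldha values was not tested.

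In rods the same list had medians of -0.04, 0.02 and -0.01 over 12 genes, beside -0.27, 0.03 and 0.01 over all genes. Of all rod genes, 11.8%, 5.12% and 0.652% lay past 2-fold. At 2 weeks Pgk1, a glycolytic enzyme, was higher (1.17), at 669 CPM against 296, while Ddit4, an inhibitor of mTORC1, was lower (-1.19), at 571 against 1304, as was Vldlr, a lipoprotein receptor (-1.21). Vldlr was also lower at 4 weeks (-1.59). At 2 weeks the listed genes, which include regulators of HIF as well as targets, lay on both sides of 0 in rods. Whether they bear on the rod level of Vegfa was not tested.

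The second list, 10 other regulators of Vegfa transcription or transcript stability, had medians of 0.29, 0.18 and -0.02 in Müller glia and -0.23, 0.04 and -0.13 in rods. In Müller glia Zfp36, which encodes an mRNA-destabilising protein, was higher at 2 weeks (1.44). In rods Ppargc1a, the coactivator PGC-1alpha that is known to induce Vegfa in muscle, stood at 17.9 CPM at 2 weeks, 15.6 at 4 weeks and 52.0 at 8 weeks against 38.5 in control. It was lower at 2 and 4 weeks (-1.11 and -1.30) and above control, short of 2-fold, at 8 weeks (0.43 [0.17, 0.69]).

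Downstream genes were read in endothelial cells. Of 30 genes of VEGF receptor signalling and response, 18, 17 and 17 could be compared, with medians of -0.36, -0.08 and -0.23 beside -0.02, -0.01 and -0.13 over all genes. Of all endothelial genes, 5.68%, 7.61% and 6.58% lay past 2-fold at 2, 4 and 8 weeks. At 2 weeks 4 were lower past 2-fold, the adhesion gene Icam1 (-1.65), the homeobox gene Hlx (-1.61), the apelin receptor gene Aplnr (-1.10) and the early response gene Nr4a1 (-1.04), and the netrin receptor gene Unc5b was higher (1.06). At 4 weeks Hlx (-2.12) and Nr4a1 (-1.29) were lower and the adhesion gene Vcam1 higher (1.96). At 8 weeks Vcam1 (-1.57), the ERK phosphatase gene Dusp5 (-1.32), the Notch feedback gene Nrarp (-1.25) and Hlx (-1.13, interval holding 0) were lower. In Müller glia, where Kdr was highest, this list had medians of 0.23, 0.23 and 0.17, with Plcg1, a phospholipase that binds KDR, higher (1.03) at 4 weeks.

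The endothelial reference list, 9 genes such as Cldn5 and Cdh5, had 0 genes past 2-fold and medians of -0.13, -0.08 and -0.30. Of the angiopoietin and Tie axis, 4 genes were compared in endothelial cells and 0 passed 2-fold (medians -0.08, -0.0029 and -0.22). Beside these lists, 5.68%, 7.61% and 6.58% of all endothelial genes lay past 2-fold. Genes of the HIF list had endothelial medians of 0.24, 0.30 and 0.31, with Ndrg1 higher at 4 and 8 weeks (1.29 and 1.72), Ddit4 at 4 weeks (1.00), and Vhl (1.19) and P4ha2 (1.02) at 8 weeks.

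Genes with the pattern most like each member were sought over 32 sums of a class in a library, by Pearson's r of log2(CPM + 1) among genes with a mean of at least 20 CPM, as a description with no test, since sums of a library share its depth and its free RNA. Vegfa was most like Trim2 (r = 0.913), Arhgap32 (0.894) and Zfp219 (0.883). Flt1 was most like Plat (0.955), Slco1c1 (0.945) and Ltbp4 (0.942), and Kdr most like Htra1 (0.917), Penk (0.890) and Mt2A (0.875). The other 5 members had means under 20 CPM, so that their patterns rest on few UMIs. Vegfc was nearest to Clec14a (0.943), Igfbp3 (0.940) and Slc9a3r2 (0.932), Pgf to Pdgfrb (0.859) and Ccdc80 (0.859), and Vegfb to Cry1 (0.862), RGD1307947 (0.849) and Polr2b (0.844). Nrp1 was nearest to Aldh2 (0.954), Cast (0.948) and Vat1 (0.936), and Nrp2 to Smyd2 (0.844), Pou2f2 (0.791) and Sulf2 (0.790).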

How the data were processed

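The authors deposited counts, as whole-number UMI counts per gene and barcode in sparse matrices; per the submitters' processing notes these came from Cell Ranger 3.0.1 on Rnor_6.0. Barcodes with at least 200 genes, at least 500 UMIs (the lowest present) and at most 20% mitochondrial UMIs were kept. Scrublet scores (scanpy 1.11.5) set aside the top 0.8% per 1000 barcodes as doublets, 279 to 1627 a library. Cells were clustered with Leiden (leidenalg 0.10.2, resolution 1.0, 2000 variable genes, 30 principal components, 15 neighbours). The 8 genes were left out of the variable genes, of which they had held 3 places. A cluster was named from at least 3 markers at 50 CPM and 2-fold over the other clusters, with rules chosen after the clusters were seen. A class was compared at 30 cells in both libraries and a gene at 10 summed UMIs; 0.5 counts were added before log2, with exact conditional intervals (scipy 1.17.1). The all-gene share used genes at 20 CPM and 30 UMIs. TMM factors came from edgeR 4.0.16, for scaling only. With 1 library per group no test was made. Cells were thinned to 500 UMIs for shares. The floor for a count of 0 is 3 counts. Genes named from the 8 gene lists are those past 2-fold with at least 30 summed UMIs, up to 4 per list, class and time. The arithmetic was tested on simulated data. The members and lists were chosen with earlier results of these data known. There were 18 alternatives. Some genes that the naming rule selects are not reported here.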

Additional observations from a re-analysis of the deposited data

Results flagged for a closer look

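Vegfa differed in direction between rods and Müller glia under the same contrast. At 2 weeks the log2 ratio, diabetic over control, was -2.59 in rods and 0.69 in Müller glia, and at 4 weeks it was -1.07 in rods and 1.58 in Müller glia. The difference between the classes was not tested, since each time has 1 diabetic library and all share 1 control library. The rod ratio was below 0 within each of the 5 rod clusters at both times. The mitochondrial share of rods and the free RNA in Müller glia were both highest at 2 weeks. The 2 week ratio in rods lay between -2.92 and -2.32 over 13 settings that include limits of 10% and 40% mitochondrial UMIs, and the 2 week ratio in Müller glia was 0.95 with free RNA subtracted.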

How the results depend on the processing

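Over the 18 alternatives, 1012 recomputed ratios of the 8 genes moved by less than their counting interval, 36 moved further and 0 called ratios changed sign. Vegfa in rods at 2 weeks was -2.92 at a minimum of 1000 UMIs, -2.32 thinned to 500 UMIs and -2.34 with TMM scaling, and -2.15, -2.11, -2.23 and -1.71 within rod clusters 0 to 3. At 4 weeks it was -1.36 at 1000 UMIs, -0.89 thinned, and -0.88, -0.77, -0.89, -0.85 and -0.65 within clusters 0 to 4. At 8 weeks it was -0.67, -0.69, 0.46 and -0.35 within clusters 0, 2, 3 and 4. Vegfa in Müller glia was 0.95 at 2 weeks with free RNA subtracted, and 1.85 at 4 weeks and 0.67 at 8 weeks thinned. Flt1 in endothelial cells was 0.45 at 2 weeks at Leiden resolution 0.5 and -0.34 at 8 weeks thinned. Kdr in Müller glia was 0.61 at 2 weeks with free RNA subtracted, and -0.40 at 4 weeks and 0.51 at 8 weeks thinned, and in endothelial cells 0.77 at 4 weeks thinned. The cause of these shifts was not tested, except that thinning leaves few UMIs. The number of genes past 2-fold per comparison, 40 to 779, was 211 to 2046 at 1.5-fold, 114 to 1360 at 5 CPM and 4 to 205 at 100 CPM. Müller glia formed 1 cluster, so no ratio within Müller clusters was made. No paired analysis was possible because each group compared has 1 library. Depth limits Vegfb, Vegfc, Pgf, Nrp1 and Nrp2, which outside their main class had few UMIs.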

Other observations

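The remaining gene lists showed scattered changes around the family. Of 13 other genes of the VEGF family and its semaphorin and plexin partners, 3 could be compared in endothelial cells. Plxna2, a semaphorin co-receptor gene, stood there at 98.7 CPM at 2 weeks and 85.9 at 4 weeks against 34.9 in control (log2 1.47 and 1.29), and the semaphorin gene Sema3c was lower at 2 weeks (-1.43). The list's endothelial medians were -0.06, 0.37 and -0.54. In Müller glia Sema3a, whose product binds NRP1, was lower at 4 weeks (-1.16).

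Of 10 angiogenesis inhibitors or modulators, 4 were compared in endothelial cells, with medians of 0.59, 0.27 and 0.02. At 2 weeks Timp3, an inhibitor of matrix proteases that also blocks VEGF binding to KDR (1.13), was higher, as was the protease gene Adamts1, at 78.8 CPM against 36.3 in control. Lrg1, a secreted glycoprotein gene, stood at 232 CPM at 4 weeks and 360 at 8 weeks against 99.4 in control (1.22 and 1.85). Sparc, a matrix protein gene, was lower at 8 weeks (-1.06). In Müller glia 5 genes of this list had medians of -0.13, -0.27 and -0.04, with the chemokine gene Cxcl14 lower at 4 weeks (-1.12). Of 12 other growth factor genes, 10 were in the files. In endothelial cells 0 of the 5 compared passed 2-fold (medians 0.10, 0.01 and -0.33), where 5.68%, 7.61% and 6.58% of all genes did. In Müller glia Ccn2, which encodes connective tissue growth factor, was higher at 4 weeks, at 74.8 CPM against 17.2 in control (2.10).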
